A study of Mus musculus with 36 samples.

Results

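The endothelial and angiogenesis genes followed here through 36 mouse tumour libraries were Pecam1, Cdh5, Kdr, Flt1, Tek, Tie1, Esam, Angpt1, Angpt2 and Vegfa. They were taken by name and are 10 of the 37417 genes in the count table, where all 10 were found and all 10 passed the filter on low counts in the comparisons of classes. Pecam1, Cdh5, Kdr, Flt1, Tek, Tie1 and Esam are called the vessel wall genes below; gene positions are given on GRCm38 from GENCODE vM21. Levels are CPM, the count of a gene per 1000000 counts in all gene rows of its library.

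Blood vessels are lined by endothelial cells, which hold together through adhesion proteins such as those encoded by Pecam1, Cdh5 and Esam. Endothelial cells carry receptors for 2 families of growth signals, the vascular endothelial growth factors and the angiopoietins. Cells short of oxygen make VEGF-A, which drives endothelial cells to divide and sprout, while the angiopoietins tune how tightly a vessel is wrapped and sealed by its mural cells. In a bulk tumour library the vessel wall is a minor share of the RNA, so fewer endothelial cells and less RNA per endothelial cell cannot be told apart.

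The study tested immune checkpoint antibodies against subcutaneous tumours in 12-week-old wild-type mice, and each library came from the tumour of 1 mouse, taken at end-stage. By their labels, 12 tumours were MC38 (a colon line, in C57BL/6J mice), 12 were CT26 (a colon line, in BALB/c mice) and 12 were PancO2 (a pancreatic line, in C57BL/6J mice). Within each labelled line, 4 mice were given control IgG from rat serum, 4 anti-CTLA4 and 4 anti-PD-1, each at 10 mg/kg into the peritoneum. All 36 mice carried a transplanted cell line and no engineered allele.

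The labelled line did not sort the libraries by expression. H2-Ea-ps, which BALB/c mice express and C57BL/6J mice do not, went against the labelled strain in 16 of the 36 libraries. The libraries were therefore also described by 3 classes drawn from 2 genes outside the list: H2-Ea-expressing (H2-Ea-ps above 10 CPM, 12 libraries), Cp-high (Cp, which encodes ceruloplasmin, above 1000 CPM, 12 libraries) and neither (12 libraries). H2-Ea-ps ran from 32.8 to 134 CPM in the first class and reached at most 0.0845 CPM in the other 2, and Cp ran from 1389 to 2168 CPM in the Cp-high class and reached 611 CPM at most elsewhere. The classes are groups set from these libraries and not the study's own. Each class held 3 to 5 libraries of every labelled line and 3 to 5 of every labelled treatment.

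Depth ran from 7883106 to 41751023 counts per library, with a median of 27968270.5. PancO2 anti-PD-1 71 stood apart, with the lowest total, 15.7% of its counts from mitochondrial genes against 2.80 to 4.35% in the other 35 libraries, and 86.5% of its reads in the counter's summary rows against 44.8 to 63.4%. It fell in the H2-Ea-expressing class, and the results that it changed are given with and without it. The pooled likeness values and the levels by class include it. No batch or date is named in the labels.

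The libraries held vessel RNA by every marker looked at. All 11 blood endothelial markers used for this check (the 7 vessel genes above with Emcn, Egfl7, Clec14a and Robo4) had a median over 1 CPM in each class. Their summed level ran from 176 to 353 CPM in the H2-Ea-expressing class, from 145 to 282 CPM in the Cp-high class and from 197 to 334 CPM in the class with neither. No marker of the list was at 0 across a class. Of 4 measured lymphatic markers, 1 or 2 had a median over 1 CPM in a class, with summed levels of 4.15 to 48.8 CPM.

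The promoter stretches of the 4 growth factor receptors and of the ligand Vegfa are shown because the relation of this ligand to its receptors and to the angiopoietin receptors within a class is the comparison the values turn on. Each line holds the 250 bases before the RefSeq start (GRCm38.p6), 5′ to 3′ on the strand of the gene, and capitals mark matches, on either strand, to CAGGAA, a core that ETS factors bind in many endothelial genes, and to ACGTG and also GCGTG, cores that hypoxia-inducible factors bind; a match on the other strand appears as the reverse complement. Of all 32851 promoter windows of the same length, 25.7% held the first, 16.6% ACGTG and 28.2% GCGTG, and no 2 matches in the windows shown overlapped. The windows were chr5:75978456-75978705 (Kdr, minus strand), chr5:147726012-147726261 (Flt1, minus), chr4:94739039-94739288 (Tek, plus), chr4:118489850-118490099 (Tie1, minus) and chr17:46032378-46032627 (Vegfa, minus).
Kdr: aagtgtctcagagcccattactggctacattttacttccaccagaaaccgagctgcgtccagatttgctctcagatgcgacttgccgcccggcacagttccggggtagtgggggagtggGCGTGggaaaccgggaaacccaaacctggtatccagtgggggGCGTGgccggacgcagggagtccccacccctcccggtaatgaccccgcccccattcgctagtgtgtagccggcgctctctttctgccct
Flt1: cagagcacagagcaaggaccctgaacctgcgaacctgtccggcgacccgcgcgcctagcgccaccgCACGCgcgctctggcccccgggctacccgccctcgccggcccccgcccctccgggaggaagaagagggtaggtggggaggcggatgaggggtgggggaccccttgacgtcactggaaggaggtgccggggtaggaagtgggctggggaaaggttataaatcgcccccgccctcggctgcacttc
Tek: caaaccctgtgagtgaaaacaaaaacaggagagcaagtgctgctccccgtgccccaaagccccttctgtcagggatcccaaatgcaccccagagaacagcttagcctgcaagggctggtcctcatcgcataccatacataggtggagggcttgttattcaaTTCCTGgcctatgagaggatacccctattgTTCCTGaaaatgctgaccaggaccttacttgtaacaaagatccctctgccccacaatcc
Tie1: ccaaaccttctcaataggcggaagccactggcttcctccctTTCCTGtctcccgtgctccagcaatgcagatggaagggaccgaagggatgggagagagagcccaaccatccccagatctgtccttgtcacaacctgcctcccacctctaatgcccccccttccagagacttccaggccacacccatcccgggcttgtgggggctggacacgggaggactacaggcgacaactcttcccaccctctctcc
Vegfa: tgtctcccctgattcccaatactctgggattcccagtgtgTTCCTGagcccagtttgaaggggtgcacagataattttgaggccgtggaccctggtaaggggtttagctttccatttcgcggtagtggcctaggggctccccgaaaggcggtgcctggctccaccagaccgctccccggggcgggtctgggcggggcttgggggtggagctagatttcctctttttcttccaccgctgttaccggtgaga

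Tek held 2 matches to the ETS core, and Tie1 and Vegfa held 1 each. Kdr held 2 matches to GCGTG and Flt1 held 1, on the other strand. A second RefSeq start of Vegfa, inside the gene, had a window (chr17:46025164-46025413) with 1 match to ACGTG and 1 to GCGTG. No window was found in the table used for Pecam1, Cdh5, Esam, Angpt1 or Angpt2. These are matches of letters only, and the shares over all windows show how common they are.

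The class with high Cp had less of most vessel wall transcripts than both other classes, and Angpt1 separated all 3 classes without overlap. The share of all genes that separate the classes in this way was not counted, so the separation is not shown to be particular to Angpt1. Against the class with neither marker, edgeR (quasi-likelihood F-test, p values adjusted by Benjamini-Hochberg over 16323 genes, 12 libraries a class) called 7 of the 10 genes in the Cp-high class, 6 lower and 1 higher, where 67.6% of all genes tested were called and 33.4% were called lower. Against the H2-Ea-expressing class it called 6 of the 10, 5 lower and 1 higher, beside 74.1% of all genes called and 38.1% called lower. Between the H2-Ea-expressing class and the class with neither marker it called 1 of the 10, Angpt1, beside 70.9% of all genes. The share of the 10 genes called was near or under that of all genes in each comparison, so these counts are no result about the 10 genes as a group, and the size of each difference is given instead.

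**Figure D1:**
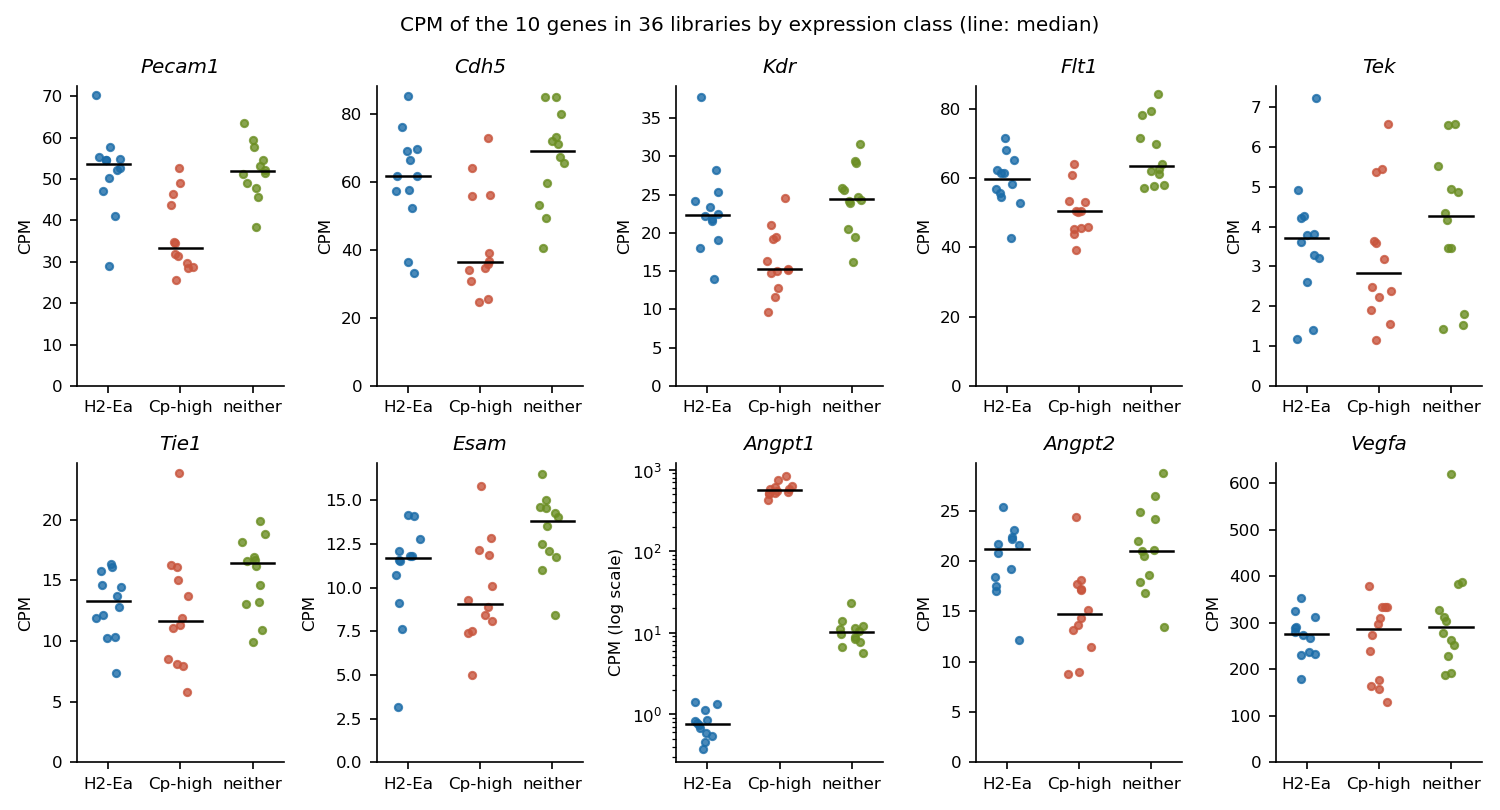
CPM (y axes, linear from 0 except Angpt1, which is on a log scale) of the 10 genes in the 12 libraries of each class (x axes), 1 point per library, with the class median as a line. Angpt1 fills 3 separate bands, around 0.765, 10.1 and 560 CPM, while the other 9 genes overlap between all classes.

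The junction and adhesion genes were lower in the Cp-high class than in the class with neither marker. Pecam1 (chr11:106654217-106750628, minus strand), which encodes the platelet and endothelial adhesion molecule CD31, had a lowest, median and highest level of 29.05, 53.7 and 70.3 CPM in the H2-Ea-expressing class, 25.7, 33.2 and 52.7 CPM in the Cp-high class and 38.4, 51.9 and 63.6 CPM in the class with neither marker. In 8 of 12 Cp-high libraries Pecam1 lay under every library of the class with neither marker. Its log2 fold change in the Cp-high class was -0.49 (SE 0.11) against neither (adjusted p = 0.00013) and -0.58 (SE 0.11) against the H2-Ea-expressing class (adjusted p = 8.79e-06).

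Cdh5 (chr8:104101625-104144511, plus strand), which encodes VE-cadherin, the adhesion protein of endothelial junctions, ran at 33.1, 61.8 and 85.2 CPM in the H2-Ea-expressing class, 24.8, 36.3 and 72.9 CPM in the Cp-high class and 40.5, 69.2 and 85.01 CPM in the class with neither. The classes overlapped at their edges, and 8 of 12 Cp-high libraries lay under the whole class with neither marker. Its log2 fold changes in the Cp-high class were -0.63 (SE 0.16, adjusted p = 0.00064) against neither and -0.59 (SE 0.16, adjusted p = 0.00104) against the H2-Ea-expressing class.

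Esam, too, overlapped between classes. It (chr9:37528078-37538319, plus strand) encodes an adhesion molecule of endothelial junctions and platelets and ran at 3.17, 11.7 and 14.2 CPM, 4.98, 9.07 and 15.8 CPM, and 8.42, 13.8 and 16.5 CPM in the 3 classes in the same order. It fell by 0.41 on the log2 scale (SE 0.15, adjusted p = 0.0179) in the Cp-high class against neither. Against the H2-Ea-expressing class the log2 difference was -0.24 (SE 0.15, adjusted p = 0.152), and without PancO2 anti-PD-1 71, which held the lowest Esam level of all 36 libraries, it was -0.32 and passed the test. Platelets also carry Pecam1 and Esam, and the summed level of 5 platelet and megakaryocyte markers was 15.4 to 31.6 CPM, 10.9 to 52.6 CPM and 29.2 to 143 CPM in the 3 classes, with none of the 5 at 0 across a class; its part in the Esam and Pecam1 differences was not tested.

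The VEGF receptors were lower in the Cp-high class as well. Kdr (chr5:75932827-75978458, minus strand), which encodes VEGFR2, the main signalling receptor for VEGF-A, ran at 13.9, 22.4 and 37.8 CPM in the H2-Ea-expressing class, 9.70, 15.3 and 24.6 CPM in the Cp-high class and 16.2, 24.5 and 31.6 CPM in the class with neither. In the Cp-high class 7 of 12 libraries lay under each library of the class with neither marker. Its log2 fold changes in the Cp-high class were -0.57 (SE 0.13, adjusted p = 0.000134) and -0.59 (SE 0.13, adjusted p = 8.14e-05) against neither and against the H2-Ea-expressing class.

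Flt1 (chr5:147561604-147726011, minus strand), which encodes VEGFR1, a receptor that binds VEGF-A tightly and also exists in a soluble form that traps it, ran at 42.8, 59.8 and 71.4 CPM, 39.4, 50.3 and 63.9 CPM, and 57.2, 63.3 and 84.3 CPM. In the Cp-high class 10 of 12 libraries lay under the whole class with neither marker, the most for any of the vessel genes. The log2 fold changes were nevertheless smaller than those of Kdr, at -0.39 (SE 0.08, adjusted p = 5.8e-05) and -0.32 (SE 0.08, adjusted p = 0.0007).

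The angiopoietin receptors Tek and Tie1 did not pass the test between any classes. Tek (chr4:94739289-94874976, plus strand), which encodes TIE2, the receptor for the angiopoietins, was the least abundant vessel gene and ran at 1.18, 3.72 and 7.23 CPM, 1.14, 2.85 and 6.59 CPM, and 1.43, 4.26 and 6.57 CPM, from 11 to 216 counts per library. Its log2 difference between the Cp-high class and neither was -0.28, with a 95% interval of -0.82 to 0.26 that holds the sizes seen for Pecam1, Cdh5 and Kdr. Tie1 (chr4:118471191-118490061, minus strand), an orphan receptor that pairs with TIE2, ran at 7.38, 13.3 and 16.3 CPM, 5.77, 11.6 and 23.8 CPM, and 9.95, 16.4 and 19.9 CPM. Its difference was -0.29 (95% interval -0.60 to 0.02, adjusted p = 0.105) by edgeR and -0.37, past the threshold, by limma-voom.

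**Figure D2:**
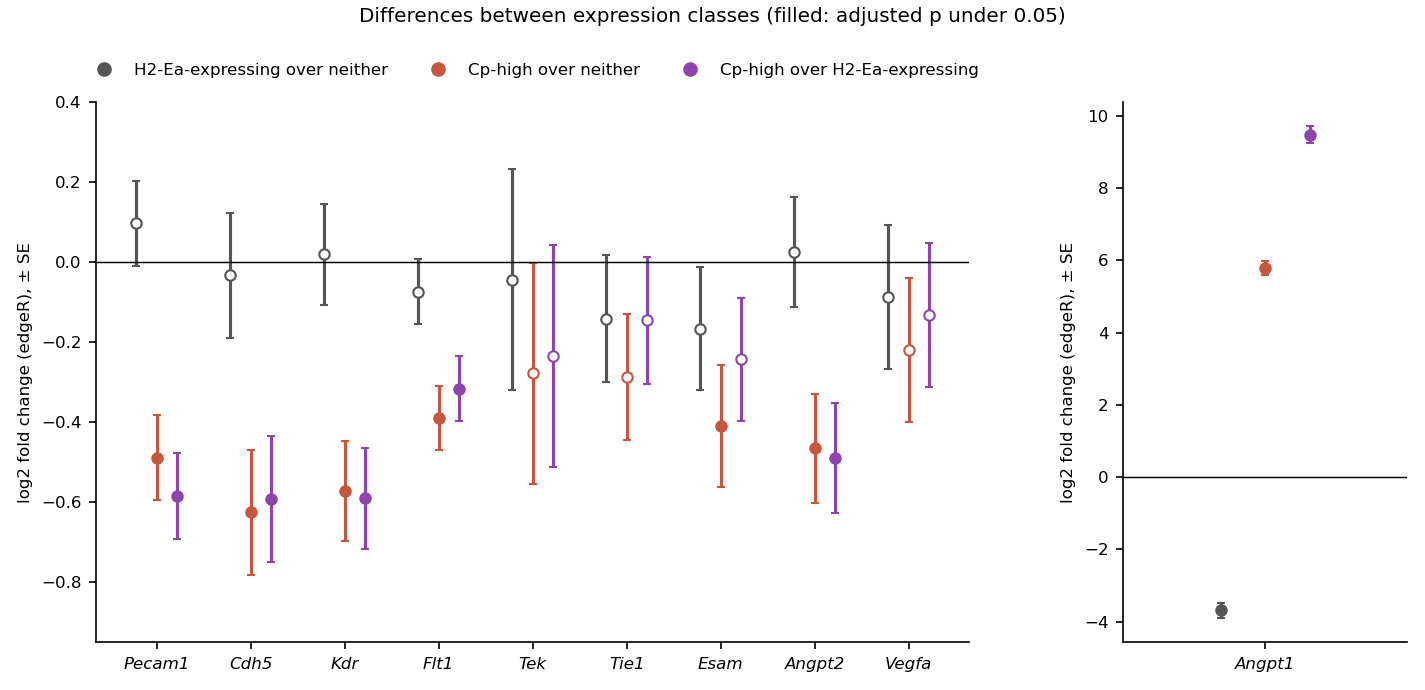
Log2 fold change (y axes) of each gene (x axes) between pairs of classes, 12 libraries each, with the standard error as bars; filled points have an adjusted p under 0.05 by edgeR, and Angpt1 has an axis of its own. The H2-Ea-expressing points against neither sit around 0 for 9 genes, and both sets of Cp-high points sit below 0 for these 9.

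Of the ligands, Angpt1 differed most. Angpt1 (chr15:42424723-42676977, minus strand) encodes angiopoietin-1, which activates TIE2 and steadies vessels, and is made chiefly by mural and other stromal cells. Its level was 0.377, 0.765 and 1.40 CPM in the H2-Ea-expressing class (7 to 37 counts per library), 420, 560 and 832 CPM in the Cp-high class and 5.59, 10.1 and 23.1 CPM in the class with neither marker. All 12 libraries of each class lay apart from all 12 of the next, a trait whose share over all genes was not counted. The fitted log2 differences were 5.79 (SE 0.18, a 55.2-fold difference, adjusted p = 1.36e-25) for the Cp-high class over neither, 9.47 (SE 0.23, 710-fold, adjusted p = 2.42e-29) over the H2-Ea-expressing class, and -3.69 (SE 0.21, adjusted p = 8.59e-18) for the H2-Ea-expressing class over neither. Of its exon bases 14.2% are shared with Gm17473 on the other strand, and reads of the pair cannot be told apart without knowing the strand setting of the counting.

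Per kilobase of exon, the class medians of Angpt1 were 0.147, 108 and 1.95 CPM, while those of Cdh5 were 14.7, 8.65 and 16.5 CPM. In the Cp-high class Angpt1 was thus above every vessel wall gene and above Vegfa (66.7 CPM per kilobase), and in the H2-Ea-expressing class it was the lowest of the 10. The summed level of 6 pericyte markers moved across the classes too, at 80.1 to 193 CPM, 519 to 939 CPM and 327 to 446 CPM, and that of 5 fibroblast markers at 1480 to 2701 CPM, 2582 to 4828 CPM and 2619 to 4661 CPM. These sums do not stand for each marker. In the Cp-high class against neither, edgeR called 4 of the 6 pericyte markers lower and 2 higher (median log2 fold change -1.45). Of the 5 fibroblast markers it called 3 lower and 2 higher (median -0.80), where 33.4% of all genes were called lower and 34.2% higher. None of these markers was at 0 across a class, and their part in the Angpt1 difference was not tested. Whether tumour cells or host cells held the Angpt1 transcripts was not tested either.

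Angpt2 (chr8:18690263-18741562, minus strand) encodes angiopoietin-2, which endothelial cells release when vessels are remodelled and which competes with angiopoietin-1 at TIE2. It ran at 12.1, 21.2 and 25.4 CPM, 8.80, 14.8 and 24.4 CPM, and 13.4, 21.0 and 28.8 CPM, with 4 of 12 Cp-high libraries under the whole class with neither marker. The log2 fold changes of the Cp-high class were -0.47 (SE 0.14, adjusted p = 0.00301) against neither and -0.49 (SE 0.14, adjusted p = 0.00177) against the H2-Ea-expressing class. These sizes lie in the range of the vessel wall genes.

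Vegfa (chr17:46016993-46032369, minus strand), which encodes VEGF-A, did not pass the test between any classes. It ran at 179, 276 and 353 CPM in the H2-Ea-expressing class, 129, 286 and 380 CPM in the Cp-high class and 188, 290 and 620 CPM in the class with neither, and the 3 ranges overlapped. The log2 differences were -0.09 (95% interval -0.44 to 0.26) for the H2-Ea-expressing class over neither, -0.22 (-0.57 to 0.13) for the Cp-high class over neither and -0.13 (-0.48 to 0.22) for the Cp-high class over the H2-Ea-expressing class.

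Between the H2-Ea-expressing class and the class with neither marker, the log2 differences of the 9 genes other than Angpt1 ran from -0.17 (Esam) to 0.10 (Pecam1), with adjusted p values of 0.334 or more by edgeR. The median over the 7 vessel wall genes was -0.04, against 0.03 over all genes tested. For the Cp-high class over neither the same medians were -0.41 and 0.02, and for the Cp-high class over the H2-Ea-expressing class -0.32 and -0.04.

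Other endothelial genes were called in both directions. Of all genes tested, 34.2% were called higher and 33.4% lower in the Cp-high class against neither, 36.9% and 34% in the H2-Ea-expressing class against neither, and 36% and 38.1% in the Cp-high class against the H2-Ea-expressing class, and the list counts that follow are set beside these shares. Of 29 further endothelial genes tested (of a list of 30), 3 were higher, 13 lower and 13 not called in the Cp-high class against neither, with a median log2 fold change of -0.27. Cd34, which marks endothelial and stromal progenitor cells, had a median of 23.9 CPM in the Cp-high class against 559 CPM in neither and 680 CPM in the H2-Ea-expressing class (log2 fold change -4.43 against neither, SE 0.12). Ecscr, an endothelial regulator of chemotaxis, fell by 1.34 (SE 0.11) on the log2 scale in the same comparison. The Cd34 medians of 559 and 680 CPM lay above the highest summed level of the 11 blood endothelial markers in those classes (334 and 353 CPM). Whether tumour cells or host cells held the Cd34 transcripts was not tested.

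In the H2-Ea-expressing class against neither, 7 of the 29 were higher, 7 lower and 15 not called, with a median of -0.14. The leukocyte-catching selectins stood far above the other classes there: Sele, E-selectin, ran from 97.9 to 155 CPM in the H2-Ea-expressing class and reached 1.25 CPM at most elsewhere. Selp, P-selectin, ran from 31.3 to 86.4 CPM there against at most 1.67 CPM elsewhere. Both were named for the size of their change among list genes with a mean of at least 5 CPM over all libraries. They met that mean only through the H2-Ea-expressing class, so their contrast with the other classes comes in part from how they were picked. Which cells, tumour or host, held the selectin transcripts was not tested. Vwf, von Willebrand factor of endothelium and platelets, had a median of 2.15 CPM against 35.1 CPM in neither. For the Cp-high class over the H2-Ea-expressing class the counts were 6 higher, 12 lower and 11 not called (median -0.19).

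In the rest of the VEGF and angiopoietin pathway genes were likewise called higher and lower, and these counts too stand beside the shares of all genes. Of 25 genes tested (of 26), 11 were higher and 7 lower in the Cp-high class against neither (median 0.14), 14 higher and 6 lower in the Cp-high class against the H2-Ea-expressing class (median 0.43), and 7 higher and 13 lower in the H2-Ea-expressing class against neither (median -0.15). Angpt4, which encodes a further angiopoietin, had a median of 22.1 CPM in the Cp-high class against 0.169 CPM in neither and 0.237 CPM in the H2-Ea-expressing class. Esm1, endocan, a secreted proteoglycan of endothelial tip cells, had class medians of 652, 6.58 and 116 CPM in the order H2-Ea-expressing, Cp-high and neither. Vegfc, the lymphatic growth factor, had medians of 1.002, 2.40 and 19.9 CPM in that order. Thbs1, thrombospondin-1, an inhibitor of vessel growth, had medians of 89.0, 1882 and 399 CPM. The Esm1 median of 652 CPM lay above the highest summed level of the 11 blood endothelial markers in the H2-Ea-expressing class (353 CPM). Which cells, tumour or host, held the transcripts of these genes was not tested.

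Pericyte genes are given beside the same shares. Of 12, 3 were higher and 7 lower in the Cp-high class against neither (median -0.95), 3 higher and 4 lower in the Cp-high class against the H2-Ea-expressing class (median -0.07), and 5 lower and 0 higher in the H2-Ea-expressing class against neither (median -0.34), with 7 not called there by edgeR. Notch3, a receptor of mural cells, had medians of 5.50, 253 and 8.70 CPM, and Pdgfrb, the receptor that draws pericytes to vessels, had medians of 61.4, 405 and 259 CPM. Both were highest in the Cp-high class, while 7 of the 12 pericyte genes were lower there than in neither. The named genes thus do not stand for the list.

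Many pairs of vessel wall genes rose and fell together within a class. All 6 pairs of Flt1 fell short of the threshold in the Cp-high class and in the class with neither marker, while in the H2-Ea-expressing class most pairs that fell short held Flt1 or Tie1. Relations were taken between log2 CPM values over the 12 libraries of a class, as Pearson r and Spearman rho with 100000 permutations (two-sided), and adjusted over all relations among the 10 genes in the 3 classes. Of 63 pairs of vessel wall genes (21 in each class), 38 passed at an adjusted p under 0.05 for r, all of them positive: 10 in the H2-Ea-expressing class, 15 in the Cp-high class and 13 in the class with neither. By rho 27 of the 63 passed, and on residuals from labelled treatment means 26 passed for r (3, 15 and 8). Without PancO2 anti-PD-1 71, all 21 pairs of the H2-Ea-expressing class passed for r, and the total was 50.

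These counts were read beside all 11331 genes with a mean of at least 5 CPM. In the Cp-high class and the class with neither marker, at most 1.99% and 2.13% of genes had an r with the first gene of a called pair as high as that pair. In the H2-Ea-expressing class the share was 0.0883 to 26.3% over the 10 called pairs, the highest for Pecam1 with Kdr (r 0.70), and Cdh5 had a median r of 0.38 with all genes there against 0.04 and 0.05 in the other 2 classes. Without PancO2 anti-PD-1 71 that median was 0.08.

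Cdh5 and Tek had r = 0.91 (rho = 0.73) in the H2-Ea-expressing class, 0.94 (0.89) in the Cp-high class and 0.93 (0.89) in the class with neither, with adjusted permutation p values of 0.00315, 0.000338 and 0.0009 for r. With the 2 libraries farthest from the median of Cdh5 left out, r stayed at 0.65, 0.89 and 0.87. Pecam1 and Cdh5 had r = 0.93, 0.92 and 0.77 (rho 0.87, 0.83 and 0.65, adjusted permutation p for r 0.00045, 0.00189 and 0.0137), and 0.93, 0.87 and 0.51 with 2 libraries left out.

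Flt1 with Cdh5 had r = 0.45, 0.04 and 0.55 (rho 0.53, -0.06 and 0.43, adjusted permutation p for r 0.233, 0.941 and 0.123) in the 3 classes. All 6 Cp-high relations of Flt1 with other vessel wall genes lay between -0.12 and 0.18, where the other 15 pairs lay between 0.73 and 0.95. Whether Flt1 differs from Kdr in its relation to Cdh5 was not tested.

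Tie1 in the H2-Ea-expressing class had r = 0.18 with Pecam1, 0.03 with Esam and 0.49 with Tek (rho 0.42, 0.44 and 0.36, adjusted permutation p for r 0.671, 0.941 and 0.18), while Tie1 and Flt1 had r = 0.90 (rho 0.86, adjusted permutation p = 0.00189 for r). PancO2 anti-PD-1 71 held the lowest Pecam1 (29.05 CPM), Cdh5 (33.1 CPM) and Esam (3.17 CPM, 25 counts) of the H2-Ea-expressing class and at the same time the second highest Flt1 (68.1 CPM) and Tie1 (16.1 CPM). In that class r between Tie1 and Cdh5 was 0.46 with the library and 0.93 without it (rho 0.55 and 0.91), and between Flt1 and Cdh5 0.45 and 0.94 (rho 0.53 and 0.89).

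**Figure D3:**
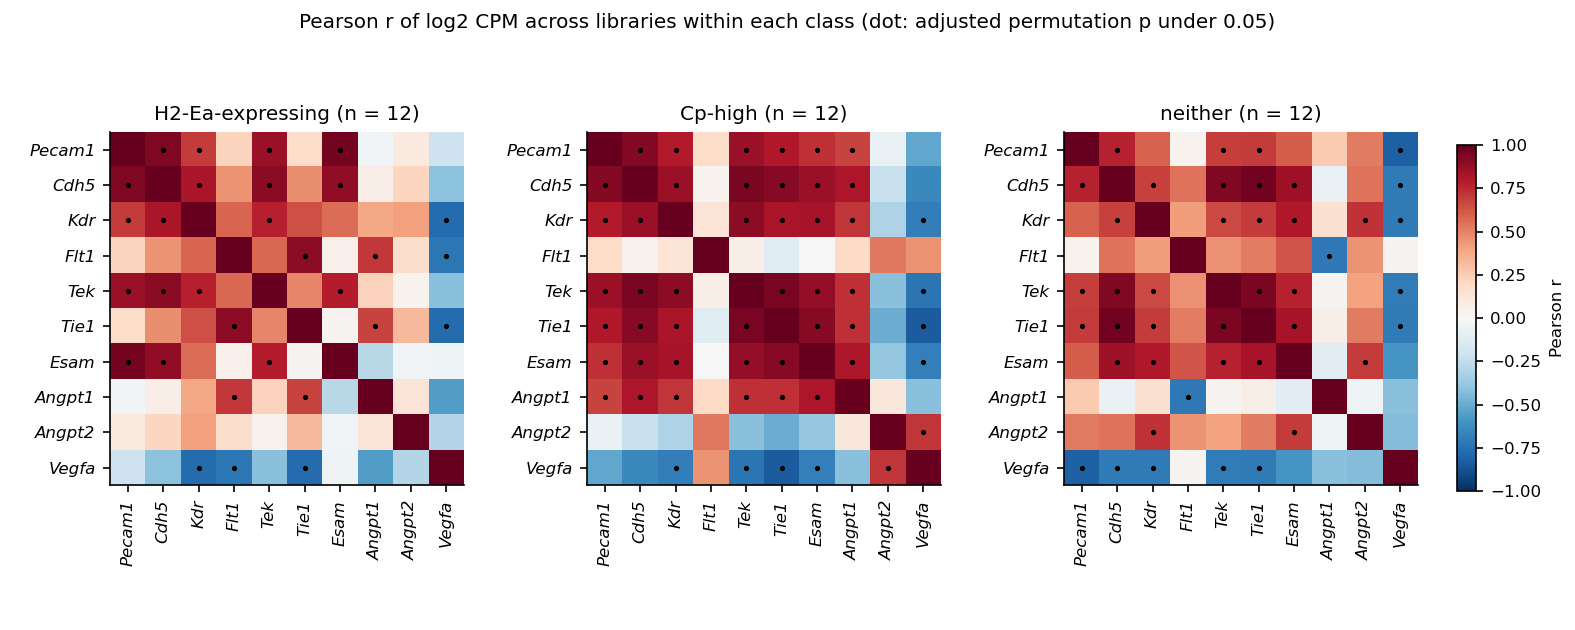
Pearson r (colour scale from -1 to 1) of log2 CPM between the 10 genes over the 12 libraries of each class, 1 panel per class, with a dot where the adjusted permutation p is under 0.05. In the Cp-high panel the vessel wall genes other than Flt1 form a red block of 0.73 to 0.95, in the H2-Ea-expressing panel Tie1 with Esam (0.03) and with Pecam1 (0.18) is pale too, and the Vegfa row and column are blue against most of them in each panel.

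Vegfa ran against the vessel wall genes. Of its 21 relations with them, 19 were negative, and 12 passed at an adjusted permutation p under 0.05 for r, all negative: 3 in the H2-Ea-expressing class, 4 in the Cp-high class and 5 in the class with neither marker. On residuals from labelled treatment means 4 of the 21 passed (0, 3 and 1), and with TMM scaling 8 (2, 2 and 4). By rho 5 of the 21 passed: Tie1 in the H2-Ea-expressing class, and Cdh5, Tek, Tie1 and Esam in the Cp-high class. The vessel wall genes also ran with each other, 38 of their 63 pairs passing, so the 12 relations are not independent. The share of all genes whose r with Vegfa would pass was not counted, so the count of 12 is no result about these genes as a group.

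Tie1 was the gene most steadily opposed to Vegfa. Its r with Vegfa was -0.77 (rho -0.83) in the H2-Ea-expressing class, -0.84 (rho -0.87) in the Cp-high class and -0.71 (rho -0.65) in the class with neither, with adjusted permutation p values of 0.0152, 0.00334 and 0.0267 for r. With the 2 libraries farthest from the median of Vegfa left out, r was -0.67, -0.73 and -0.52. Among 11331 genes with a mean of at least 5 CPM, 0.812%, 1.62% and 1.24% had an r with Vegfa as low as this in the 3 classes.

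Kdr, the receptor for VEGF-A, had r = -0.77, -0.69 and -0.71 with Vegfa (rho -0.66, -0.68 and -0.43), with adjusted permutation p values of 0.0158, 0.0315 and 0.029 for r, and 0.83%, 10.7% and 1.37% of genes were as low. With 2 libraries left out r was -0.26, -0.70 and -0.57. The 2 left out in the H2-Ea-expressing class were PancO2 anti-CTLA4 62 and PancO2 anti-PD-1 64. The first of these had the lowest Vegfa of its class (179 CPM) with the highest Kdr (37.8 CPM), and the second had the highest Vegfa (353 CPM) with the lowest Kdr (13.9 CPM). Without PancO2 anti-PD-1 71, r in that class was -0.91 (rho -0.89), and -0.76 with the same 2 libraries also left out.

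Flt1, the other VEGF-A receptor, had r = -0.72 with Vegfa in the H2-Ea-expressing class (rho -0.61, adjusted permutation p = 0.0268 for r), 0.45 in the Cp-high class (rho 0.36, adjusted permutation p = 0.226) and 0.03 in the class with neither (rho 0.13, adjusted permutation p = 0.941). The negative value was -0.38 without the same 2 libraries, -0.70 without PancO2 anti-PD-1 71 (rho -0.54) and -0.15 without all 3, and the difference between classes was not tested.

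Cdh5 had r = -0.41, -0.65 and -0.71 with Vegfa (rho -0.38, -0.73 and -0.55, adjusted permutation p for r 0.272, 0.0507 and 0.0268). Tek had r = -0.42, -0.73 and -0.70 (rho -0.20, -0.78 and -0.64, adjusted permutation p for r 0.263, 0.0248 and 0.0267). With the 2 libraries farthest from the median of Vegfa left out, r for Cdh5 was 0.20, -0.57 and -0.46 and r for Tek was 0.45, -0.63 and -0.58. In the H2-Ea-expressing class PancO2 anti-PD-1 71 combined low vessel transcripts with a Vegfa level of 232 CPM, under the class median of 276 CPM. Without it the values there were -0.77 for Cdh5 (rho -0.64) and -0.67 for Tek (rho -0.35), and with PancO2 anti-CTLA4 62 and PancO2 anti-PD-1 64 also left out they were -0.49 and 0.12. For Pecam1 r with Vegfa in that class was -0.21 with PancO2 anti-PD-1 71 and -0.73 without it (rho -0.15 and -0.35, adjusted permutation p for r 0.63 and 0.0314), and 0.09 with the other 2 also left out. The count of Vegfa relations that passed over the 3 classes without PancO2 anti-PD-1 71 was 15 of 21.

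In the Cp-high class the ends of the range were MC38 anti-PD-1 18 and MC38 anti-CTLA4 8. The first had the lowest Vegfa of the class (129 CPM) with the highest Cdh5 (72.9 CPM), Pecam1 (52.7 CPM), Tek (6.59 CPM) and Tie1 (23.8 CPM) but the lowest Flt1 (39.4 CPM). The second had the highest Vegfa (380 CPM) with the lowest Kdr (9.70 CPM), Tek (1.14 CPM), Tie1 (5.77 CPM) and Esam (4.98 CPM). MC38 anti-PD-1 18 also had the highest summed skeletal muscle markers of the class, 630 CPM against a class median of 37.1 CPM, and the highest summed pericyte markers, 939 CPM against 697 CPM, and their part was not tested.

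In the class with neither marker the end was PancO2 IgG 51, with the highest Vegfa of all libraries (620 CPM). It held the lowest Pecam1 (38.4 CPM), Cdh5 (40.5 CPM), Kdr (16.2 CPM), Flt1 (57.2 CPM), Tie1 (9.95 CPM), Esam (8.42 CPM) and Angpt2 (13.4 CPM) of its class. With this library and MC38 anti-CTLA4 11 left out, the relations of Vegfa with Pecam1, Cdh5 and Kdr were -0.59, -0.46 and -0.57, against -0.82, -0.71 and -0.71 with them.

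**Figure D4:**
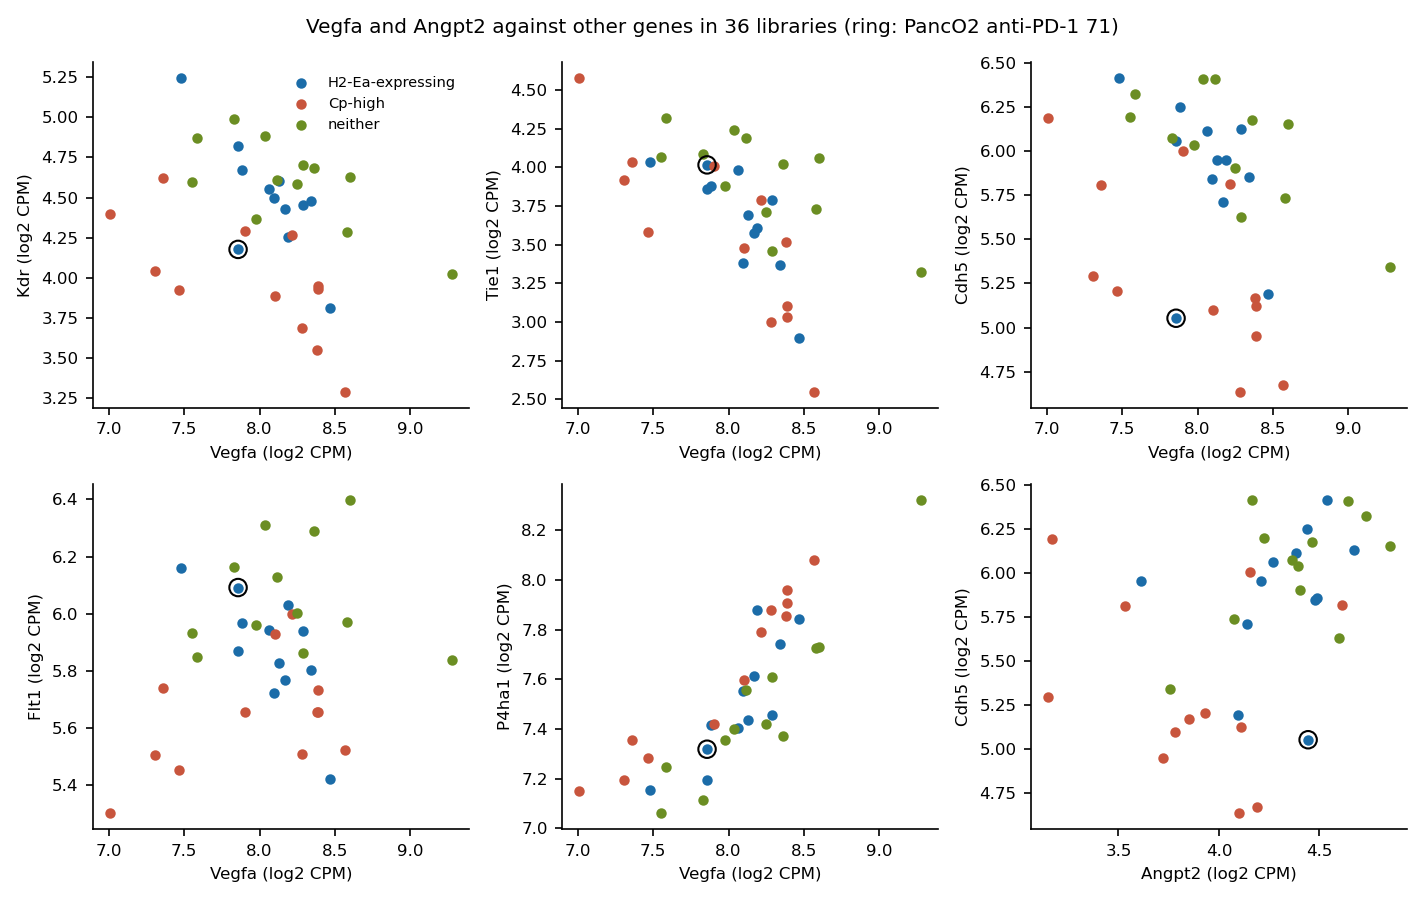
Log2 CPM of Vegfa (x axes, first 5 panels) or Angpt2 (x axis, last panel) against Kdr, Tie1, Cdh5, Flt1, P4ha1 and Cdh5 (y axes) in 36 libraries, coloured by class, with a ring around PancO2 anti-PD-1 71. Kdr and Tie1 fall as Vegfa rises within each class, P4ha1 rises with it, and Angpt2 shows no common slope with Cdh5.

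Angpt2 had no such common relation. Of its 21 relations with vessel wall genes, 2 passed, both in the class with neither marker: Kdr at r = 0.72 (rho 0.64, adjusted permutation p = 0.0259 for r and 0.0805 for rho, r 0.63 without the 2 libraries farthest from the median of Angpt2) and Esam at r = 0.70 (rho 0.64, adjusted permutation p = 0.0309 for r and 0.0817 for rho, r 0.40 without those 2). The 7 values ran from -0.03 to 0.41 in the H2-Ea-expressing class (0.13 to 0.47 without PancO2 anti-PD-1 71), from -0.50 to 0.52 in the Cp-high class and from 0.41 to 0.72 in the class with neither. In the Cp-high class 6 of the 7 were negative, Flt1 being the exception at 0.52.

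Vegfa and Angpt2 had r = -0.29 in the H2-Ea-expressing class (rho -0.24, adjusted permutation p = 0.474), 0.72 in the Cp-high class (rho 0.61, adjusted permutation p = 0.0259 for r and 0.0994 for rho) and -0.44 in the class with neither (rho -0.12, adjusted permutation p = 0.241). The positive value was 0.40 without MC38 anti-PD-1 18 and PancO2 anti-CTLA4 58, the libraries with the lowest Vegfa (129 and 159 CPM) and the lowest Angpt2 (8.93 and 8.80 CPM) of that class. The relation there thus rested on these 2 libraries, and the difference between classes was not tested.

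Angpt1 followed the vessel wall genes in the Cp-high class, where it was abundant. There 6 of 7 relations passed for r, from 0.68 with Pecam1 to 0.81 with Cdh5 and Esam, and Flt1 was again apart at 0.20. These 6 genes also ran with each other, 15 of the 21 pairs of vessel wall genes passing in this class, so the 6 relations are not independent. How common so high an r with Angpt1 is among all genes is not given here. Angpt1 with Esam had rho = 0.89 and an r of 0.89 with 2 libraries left out (adjusted permutation p = 0.00855 for r). In the class with neither marker 1 of 7 passed, Flt1, at r = -0.71 (rho -0.71, adjusted permutation p = 0.0224 for r, r -0.67 with 2 libraries left out), and in the H2-Ea-expressing class, at 7 to 37 counts per library, 2 passed for r (Flt1 and Tie1) and 0 for rho. Without PancO2 anti-PD-1 71, Pecam1 (0.74) and Tek (0.67) passed there instead, with r of 0.15 and -0.04 with PancO2 anti-PD-1 64 and PancO2 anti-CTLA4 62 also left out.

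The genes most like each ligand and like Cdh5 were taken over all 36 libraries after class means were removed, among 11153 genes with a symbol and a mean of at least 5 CPM. For Vegfa these were P4ha1 (pooled r 0.93), a collagen prolyl hydroxylase, Ero1l (0.90), a thiol oxidase of the endoplasmic reticulum, Slc2a1 (0.87), the glucose transporter GLUT1, Kdm3a (0.86), a histone demethylase, and Ankrd37 (0.84). All 5 are on the list of 18 hypoxia-induced genes used here. For Cdh5 they were Fgd5 (0.94), Afap1l1 (0.93), Vash1 (0.92), Mcam (0.89) and Lama4 (0.88), which is a laminin chain of the vessel basement membrane. Mcam is also on the pericyte list used here. For Angpt2 they were Arap2 (0.56), Prkce (0.55), Fam84b (0.54), R3hdm1 (0.54) and Eea1 (0.53), lower values than for the other 2 genes, and Arap2 and Eea1 had a negative r in the class with neither marker (-0.25 and -0.05). The values describe these libraries, and no p is attached to them.

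Hypoxia genes as a list ran with Vegfa in each class. Of the 18, 17 had a positive r with Vegfa in each class, with medians of 0.79 in the H2-Ea-expressing class, 0.91 in the Cp-high class and 0.70 in the class with neither, against medians over 11331 genes of 0.04, -0.18 and -0.05. Without PancO2 anti-PD-1 71 the first of these was 0.81 against -0.13 over all genes. Pfkfb4, a regulator of glycolysis, was the 1 with a negative r in each class (-0.29, -0.80 and -0.15). With Cdh5 the same 18 genes had medians of -0.40, -0.70 and -0.61, with 2, 1 and 1 positive, and -0.72 in the H2-Ea-expressing class without that library. With Angpt2 the medians were -0.42, 0.64 and -0.49, the sign turning between the Cp-high class and the other 2, as for Vegfa with Angpt2. Without PancO2 anti-PD-1 71 the first of these was -0.42 against -0.02 over all genes. The difference between classes was not tested. Nor was this list taken without the 2 libraries on which the Cp-high relation of Vegfa with Angpt2 rested.

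The list of further endothelial genes followed Vegfa in the opposite sense. Of 20 with a mean of at least 5 CPM, 16, 19 and 19 had a negative r with Vegfa in the 3 classes, with medians of -0.31, -0.64 and -0.62. The medians of all genes with Vegfa are those given above for the hypoxia list. Without PancO2 anti-PD-1 71 the list median in the H2-Ea-expressing class was -0.66, against -0.13 over all genes. Of the 11331 genes, 4558 had a positive r with Vegfa there. With Cdh5, 18, 20 and 19 genes of the list were positive, with medians of 0.74, 0.85 and 0.77, against medians over all genes of 0.38, 0.04 and 0.05. In the H2-Ea-expressing class 8057 of the 11331 genes were positive with Cdh5, and without PancO2 anti-PD-1 71 the list median was 0.84 against 0.08 over all genes. All genes of 1 library share its depth and its mix of cells, so these values are not independent of each other.

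Hypoxia genes were called between classes too, and whether their differences differ from that of Vegfa was not tested. Of the 18, 10 were higher and 0 lower in the Cp-high class against neither (median log2 fold change 0.54), 9 higher and 3 lower in the H2-Ea-expressing class against neither (median 0.38), and 5 higher and 6 lower in the Cp-high class against the H2-Ea-expressing class (median -0.25), beside the shares of all genes called given above. Car9, a carbonic anhydrase, had class medians of 30.6, 33.2 and 3.03 CPM, and Egln3, an oxygen-sensing hydroxylase, 6.26, 306 and 190 CPM.

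Between the labelled treatments none of the 10 genes passed the test. H2-Ea-ps went against the labelled strain in 16 of the 36 libraries, and the H2-Ea-expressing class held 4 libraries of each labelled line. The line labels thus did not go with this strain marker at all, and labels of samples may be wrong. How many are wrong, and whether treatment labels are among them, was not tested. The values below compare libraries as labelled, and their intervals put no bound on an antibody effect if treatment labels are wrong. In each of the 6 labelled comparisons of anti-PD-1 or anti-CTLA4 with IgG within MC38, CT26 or PancO2 (4 libraries against 4), edgeR called 0 of the 10, beside 0% of the 16285 to 16410 genes tested. Over the 9 labelled comparisons, including the 3 between lines under IgG, 25 to 912 genes had an unadjusted p under 0.05, and 3 of the 90 values of the 10 genes did. DESeq2 called 0 to 2 genes in a comparison and limma-voom 0, and neither called any of the 10.

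The labelled groups mixed the classes: 8 of the 9 held libraries of all 3, and PancO2 anti-PD-1 held 2 Cp-high and 2 H2-Ea-expressing libraries. In PancO2 IgG, Angpt1 was 544, 7.72, 10.6 and 0.853 CPM in the 4 libraries, which fall in the Cp-high class, in neither (2 libraries) and in the H2-Ea-expressing class. Every labelled group held at least 1 library with Angpt1 at 420 CPM or more and at least 1 at 1.40 CPM or less.

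**Figure D5:**
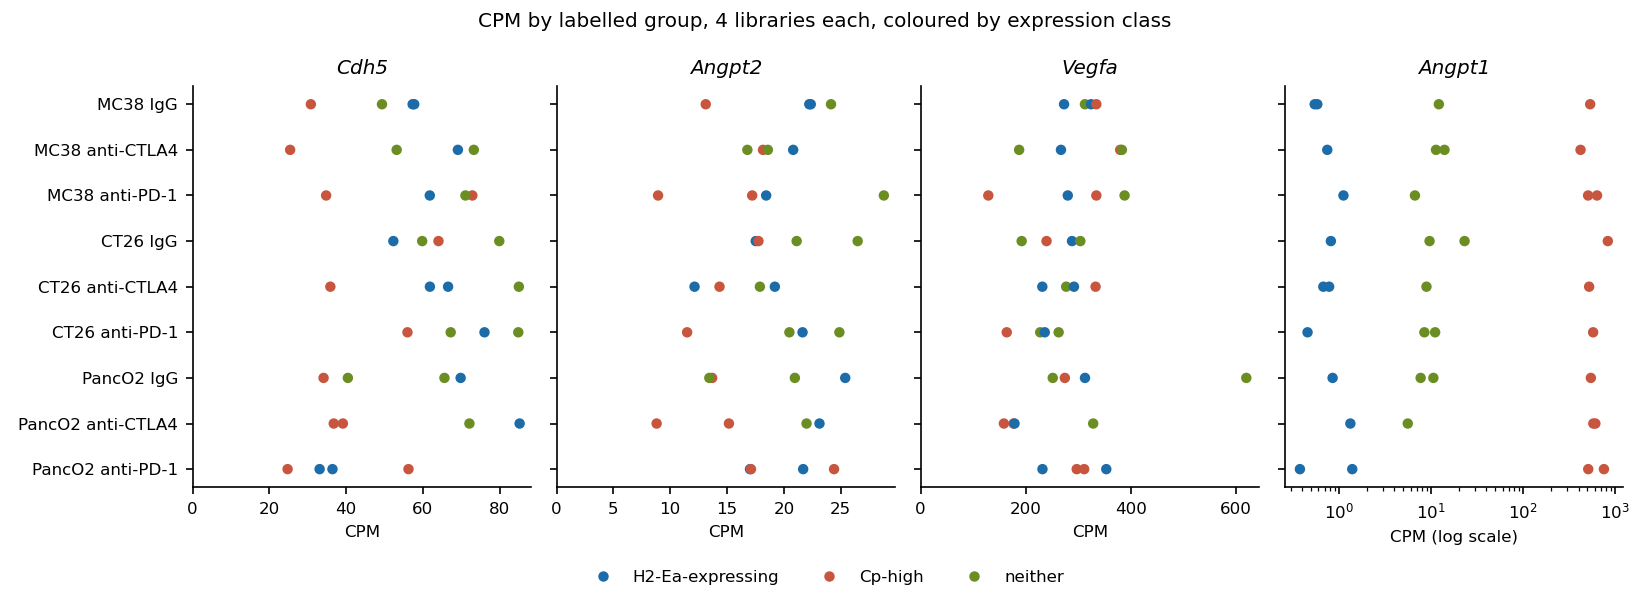
CPM (x axes, linear from 0, log scale for Angpt1) of Cdh5, Angpt2, Vegfa and Angpt1 in the 9 labelled groups (y axis, 4 libraries each), coloured by class. Each group spans Angpt1 levels from 1.40 CPM or less to 420 CPM or more, and the treated groups overlap IgG for all 4 genes in each line.

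The 3 values at an unadjusted p under 0.05 were Vegfa in PancO2 under anti-CTLA4 and Tek and Tie1 between lines. Vegfa was 274, 251, 620 and 313 CPM in PancO2 IgG and 177, 159, 328 and 179 CPM in PancO2 anti-CTLA4, so that 3 of 4 treated libraries lay under all 4 controls. Its log2 fold change was -0.83 (SE 0.34, unadjusted p = 0.032, adjusted p by edgeR 0.999997), and without each library in turn it ran from -1.11 to -0.42. Treated libraries of the Cp-high class were 2 of 4 here against 1 of 4 in the controls.

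Tek was 6.57, 3.80, 5.37 and 3.46 CPM in CT26 IgG and 1.43, 2.62, 3.82 and 1.91 CPM in MC38 IgG (log2 fold change 0.94, SE 0.40, unadjusted p = 0.0387, adjusted p by edgeR 0.99975). Tie1 was 19.9, 11.9, 16.1 and 13.0 CPM in CT26 IgG and 10.9, 10.4, 10.2 and 8.12 CPM in MC38 IgG, with no overlap between the 2 groups (log2 fold change 0.59, SE 0.22, unadjusted p = 0.0184, adjusted p by edgeR 0.99975). Both differences kept their direction without each library in turn, from 0.74 to 1.25 for Tek and from 0.46 to 0.69 for Tie1. In the 3 comparisons of lines under IgG edgeR called 0% of the 16510 genes tested.

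With class as a term over all 36 libraries, anti-PD-1 and anti-CTLA4 again called 0 of the 10 against IgG, beside 0% of 16323 genes, where 741 and 331 genes fell under an unadjusted p of 0.05 and 0 of the 10 were among them. DESeq2 and limma-voom called 0 genes in these fits. The log2 differences of the 10 genes ran from -0.24 (Angpt1) to 0.28 (Tie1) under anti-PD-1 and from -0.23 (Angpt1) to 0.19 (Tek) under anti-CTLA4. For Cdh5 the 95% intervals were -0.16 to 0.47 and -0.22 to 0.40, and for Vegfa -0.52 to 0.20 and -0.56 to 0.15.

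The effect of an antibody was also compared between labelled lines. In 6 interaction fits edgeR called 0 of the 10 genes, beside 0% of all genes in each, where 56 to 614 genes had an unadjusted p under 0.05, and limma-voom called 0. The 1 value at an unadjusted p under 0.05 was Vegfa, whose response to anti-CTLA4 was lower in PancO2 than in CT26 by 1.01 on the log2 scale (SE 0.45, unadjusted p = 0.0396, adjusted p by edgeR 0.99995).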

How the data were processed

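RNA from 36 tumours was sequenced by the authors. The paper's methods section on transcriptomics, headed as unique mutations, does not say which libraries it covers. It names TRIzol extraction, poly-A selection and 50-base reads on a HiSeq instrument. Alignment there was with Bowtie and TopHat to GRCm38/mm10, and counting per Ensembl gene with HTSeq. The deposited values are raw counts per gene, and the submitters' processing notes name FastQC 0.11.5, Bowtie2 and HTSeq. The labels name a TruSeq kit and the methods a KAPA stranded kit; the annotation release and the strand setting of the counting are not given in the sources used here. The deposited counts held 7883106 to 41751023 reads in gene rows per library, and rows that name no gene (44.8 to 86.5% of reads) entered neither library sizes nor tests.

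CPM was computed over all gene rows. Classes were set by H2-Ea-ps (above 10 CPM) and Cp (above 1000 CPM); they are groups read from these libraries and not the study's. The 10 genes, the classes and the gene lists were chosen with earlier results of these data known. Genes named from a list are up to 3 per comparison with the largest change past the threshold, among those with a mean of at least 5 CPM, and likeness is Pearson r after removing class means, over genes with a mean of at least 5 CPM. Differences were tested with edgeR 4.0.16 (R 4.3.3; filterByExpr, TMM, quasi-likelihood test, Benjamini-Hochberg over all genes tested, threshold 0.05), with DESeq2 1.42.0 and limma 3.58.1 (voom) as alternatives; 95% intervals are the fold change with a normal multiple of its standard error. Labelled comparisons used 4 libraries against 4, and the labels give 1 mouse number per library, so p-values measure the spread between these libraries. Relations used Pearson r and Spearman rho with 100000 permutations (SciPy 1.17.1), two-sided, adjusted over all relations among the 10 genes in the 3 classes. Symbols were found for 32608 of 37417 genes. No pair of libraries of the same labelled group agreed within counting noise (the smallest chi-square per gene was 6.09). Pairs across labelled groups were not compared. The fits were tested on simulated counts.

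Alternatives were DESeq2, limma-voom, DESeq2-type (RLE) size factors, library sizes without TMM, a filter of 1 count, a fold threshold, labelled treatment as a term, leaving out libraries, another prior count and Spearman's rho. Extraction batches and dates were not analysed here.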

Additional observations from a re-analysis of the deposited data

Results flagged for a closer look

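In the 9 labelled groups of 4 libraries, 90 sets of 4 values (10 genes each) were examined for a library that stood far from the other 3 by Dixon's test. For 4 values from 1 normal distribution chance gives such a library in about 1 in 20 sets, or 4.5 of 90, and 12 were found. The labelled groups mix the classes and the sets share libraries, so 12 beside 4.5 is no result.

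Angpt1 gave 6 of the 12, in each of the labelled groups that held a single Cp-high library. It was 535 CPM in MC38 IgG 7 where the group's remaining libraries held 0.545 to 12.2 CPM, 420 CPM in MC38 anti-CTLA4 8 against 0.747 to 14.004 CPM, and 832 CPM in CT26 IgG 28 against 0.817 to 23.1 CPM. It was 521 CPM in CT26 anti-CTLA4 36 against 0.677 to 8.92 CPM, 576 CPM in CT26 anti-PD-1 46 against 0.456 to 11.1 CPM, and 544 CPM in PancO2 IgG 48 against 0.853 to 10.6 CPM. These 6 restate the difference of Angpt1 between classes.

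Vessel wall genes gave 4, each in a Cp-high library. Pecam1 was 25.7 CPM in MC38 IgG 7 against 50.3 to 52.8 CPM in its group. MC38 anti-CTLA4 8 had Flt1 at 45.9 CPM against 61.1 to 62.7 CPM and Esam at 4.98 CPM against 11.8 to 12.5 CPM. Tek was 3.60 CPM in PancO2 anti-PD-1 68 against 1.18 to 1.56 CPM in its group.

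Vegfa gave the other 2, both in libraries with neither marker. It was 620 CPM in PancO2 IgG 51 against 251 to 313 CPM, and 328 CPM in PancO2 anti-CTLA4 61 against 159 to 179 CPM. Both libraries enter the Vegfa comparison of PancO2 anti-CTLA4 with IgG.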

How the results depend on the processing

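Of the class fold changes of the 10 genes under the alternatives, 217 kept direction and side of the threshold, 9 changed sign, 3 gained a call and 11 lost it, all 11 under a fold threshold of 1 on the log2 scale, which by construction leaves large changes only. That threshold left 1 gene called in each Cp-high comparison. Library sizes without TMM gave 2 calls for the H2-Ea-expressing class over neither, adding Flt1 at -0.18. The sign changes were in that comparison, near 0: without TMM Pecam1 -0.00759, Kdr -0.0829 and Angpt2 -0.0812, with a filter of 1 count Kdr -0.0207 and Angpt2 -0.0193, by limma-voom Tek 0.0747, and without PancO2 anti-PD-1 71 Cdh5 0.0112, Tek 0.0207 and Angpt2 -0.000116. Of the relations among the 10 genes in the 3 classes, 62 were called by Pearson r, 39 by Spearman's rho, and 35 on residuals from labelled treatment means; the cause was not tested. Without PancO2 anti-PD-1 71 the count was 77. For Vegfa with vessel wall genes the count of 12 became 8 with TMM and 4 on residuals. Signs of r turned for Angpt2 with Esam in the H2-Ea-expressing class (-0.03; 0.022 with TMM, 0.25 without PancO2 anti-PD-1 71, 0.0139 on residuals, 0.20 for rho), for Angpt2 with Pecam1 in the Cp-high class (0.0756 with TMM) and for Vegfa with Esam in the H2-Ea-expressing class (0.0666 with TMM, 0.0789 on residuals). Relations used raw library sizes in the main setting. They rest on no count fit, so the count filter, DESeq2 and limma-voom do not apply to them. RLE factors and leaving out each library in turn were not run for relations. Of the relations of Vegfa and Angpt2, 186 kept sign and call, 6 gained a call, 26 lost it and 7 changed sign. In labelled comparisons 0 of the 10 genes were called with each library left out in turn, a range of 0 to 0. No paired analysis was possible because each mouse number belongs to 1 library. Depth limits Angpt1 in the H2-Ea-expressing class (7 to 37 counts) and Tek (11 to 216 counts).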
